A study of Danio rerio with 6 samples.

Results

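The arginine tRNAs of the zebrafish cytoplasm were followed from the mature egg to the embryo at 24hpf, 24 hours after fertilisation. They were taken as every read sequence that the authors labelled with the isotype Arg, which gave 150 of the 3021 sequences in the cytoplasmic table: 125 under Arg-ACG, 15 under Arg-TCT and 10 under Arg-CCT. All libraries came from fish of genotype WT and strain TU, and 1 library was made per stage: the mature egg, the 1cell, 256cell and sphere stages, shield, and 24hpf. Each library was made from about 50 to 100 pooled eggs or whole embryos, so the cell types of an embryo are not separated. RNA was cut from a gel at 60 to 120 nt (the sample descriptions give 60 to 100 nt), freed of its amino acids, end-repaired with T4 PNK and treated with 3 forms of ALKB (wt, D135S and D135S/L118V), enzymes that remove methyl groups on which reverse transcriptase stops. No stage was sampled again, so differences between single stages have no replicate check and no test.

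Arginine is written by the CGN and the AGR codons. The tRNA whose gene has the anticodon ACG has its first anticodon base, position 34, deaminated to inosine, which pairs with U, C or A and is copied by reverse transcriptase as if it were G; it serves CGU, CGC and CGA. Arg-TCT and Arg-CCT serve the AGA and AGG codons. The CCA at the 3′ end of every tRNA (positions 74 to 76) is not encoded in the gene; an enzyme adds it, and arginine is joined to it. Position 26 sits where the D arm meets the anticodon arm, and in many eukaryotic tRNAs a G there is methylated at its exocyclic amine by TRMT1, giving a dimethylated base at which reverse transcriptase stops or misreads. The D135S/L118V form of ALKB was made to remove a methyl group from that base. No sequence in the cytoplasmic table was labelled Arg-TCG or Arg-CCG, so the arginine reads counted here hold neither.

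The 3 sequences below are shown because every later position is counted on them. Each was assembled from the deposited reads of its anticodon, with the 3 bases of the anticodon in capitals, so that the first anticodon base is position 34 and CCA is 74 to 76. Modified bases appear as they were read.
Arg-ACG: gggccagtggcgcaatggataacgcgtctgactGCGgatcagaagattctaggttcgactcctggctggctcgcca
Arg-TCT: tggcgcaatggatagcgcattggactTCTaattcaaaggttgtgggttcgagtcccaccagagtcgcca
Arg-CCT: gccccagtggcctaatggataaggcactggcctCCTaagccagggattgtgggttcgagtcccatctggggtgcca
Arg-ACG and Arg-CCT were covered from position 1, and Arg-TCT from position 8. Arg-ACG shared 49 of 69 bases (71.0%) with Arg-TCT and 49 of 76 (64.5%) with Arg-CCT, and Arg-TCT shared 52 of 69 (75.4%) with Arg-CCT. All 3 ended in G at position 73, the base ahead of CCA.

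Most of the diversity within Arg-ACG lay at position 26. The reads below all run from 13 to 76 and are shown because the results on sequence variants turn on them. Capitals mark the base at 26, for G26del the 4 bases around the missing one, and for C25T the base at 25.
Arg-ACG unsubstituted: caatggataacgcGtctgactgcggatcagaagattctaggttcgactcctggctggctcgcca
Arg-ACG G26T: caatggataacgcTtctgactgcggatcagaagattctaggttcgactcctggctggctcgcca
Arg-ACG G26A: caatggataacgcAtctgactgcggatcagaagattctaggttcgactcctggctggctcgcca
Arg-ACG G26del: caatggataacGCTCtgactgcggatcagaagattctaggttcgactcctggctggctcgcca
Arg-ACG C25T: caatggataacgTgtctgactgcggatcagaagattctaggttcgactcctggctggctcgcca
Sequence letters cannot separate a modified base that is misread, a second gene copy and a copying error, and which of these gave a substitution was not tested.

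The libraries held 3324546 to 7096801 reads, of which 1877927 to 4770871 were cytoplasmic and 10891 to 29580 were of arginine tRNAs. Listed tRNA reads, cytoplasmic and mitochondrial, made up 65.8% of the 1cell library and 73.4% to 83.2% of the others. In 1cell 2578858 of 6094181 reads were cytoplasmic, against 4713048 of 7096801 in egg. RPM and shares of cytoplasmic reads therefore set 1cell apart from egg by different amounts. The lowest read number of a listed sequence differed between stages. Apart from 100 Gly-GCC sequences, all 2921 listed sequences had at least 35 reads in 1cell, while in the other 5 libraries some arginine sequences had 4 reads or fewer. The rule behind the list is not given in these sources. Should sequences have been listed by their reads in 1cell, those rarer there would be missing and listed rare ones would be high in that library. The part of such a rule in the 1cell values below was not tested.

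Arginine tRNAs were a small part of the cytoplasmic pool and were lowest in the egg. They took 0.268% of cytoplasmic tRNA reads in egg, 1.147% in 1cell, 0.580% in 256cell, 0.832% in sphere, 0.614% in shield and 0.618% at 24hpf. A share of reads cannot tell fewer cells holding a tRNA from less of it per cell. Arg-ACG carried most of the arginine reads. Its share of cytoplasmic reads was 0.252% in egg (95% interval 0.247 to 0.257), 1.065% in 1cell (1.053 to 1.078), 0.525% in 256cell (0.515 to 0.536), 0.758% in sphere (0.748 to 0.767), 0.563% in shield (0.554 to 0.571) and 0.569% at 24hpf (0.562 to 0.575). These and all later intervals cover counting error only, and since PCR copies are not independent molecules they are too narrow. The order of Arg-ACG from low to high was egg, 256cell, shield, 24hpf, sphere and 1cell, with the intervals of shield and 24hpf overlapping and no others.

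In RPM, the authors' unit of reads relative to a library's total, Arg-ACG stood at 1673 in egg, 4508 in 1cell, 2967 in 256cell, 4041 in sphere, 4118 in shield and 4412 at 24hpf. Arg-TCT stood at 82.0, 236, 232, 298, 267 and 283 RPM in the same order of stages. Arg-CCT, the rarest, stood at 27.2, 110, 77.3, 97.2, 105 and 97.8 RPM. On this scale too the egg was the lowest library for all 3 anticodons, while the highest was 1cell for Arg-ACG and Arg-CCT and sphere for Arg-TCT.

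**Figure D1:**
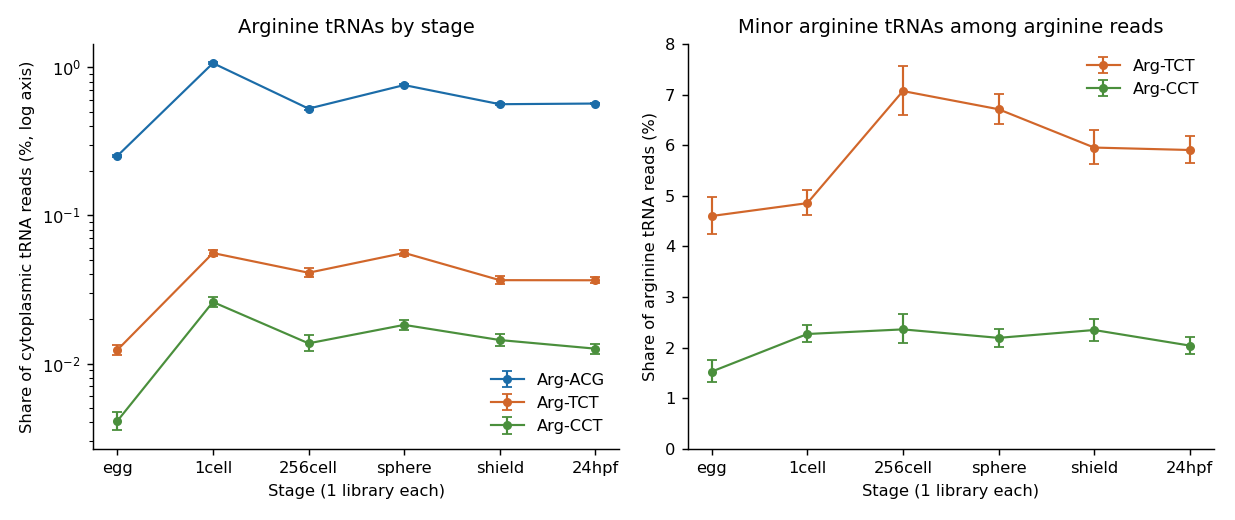
Left, the share of cytoplasmic tRNA reads (%, log axis) of Arg-ACG, Arg-TCT and Arg-CCT in each of the 6 libraries; right, the share of arginine tRNA reads (%) of the 2 minor anticodons. Points are single libraries with 95% exact intervals of counting error; all 3 lines are lowest in egg, and the 3 run close to parallel, while Arg-TCT takes 4.60% of arginine reads in egg and 7.07% in 256cell.

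Between egg and 24hpf, the widest span of the series, all 3 anticodons were higher at 24hpf. Log2 ratios here compare shares of cytoplasmic RPM after 1 RPM was added to each sum. Their intervals come from the reads without the added RPM, so for rare sequences they are not centred on the ratio. The ratio was 1.17 for Arg-ACG (1.14 to 1.21), 1.55 for Arg-TCT (1.43 to 1.70) and 1.58 for Arg-CCT (1.38 to 1.86). All 3 of 3 were past 2-fold, where 20.0% of the 35 anticodons compared were at least 2-fold higher (7 higher, 15 lower, median -0.66). That split depends on the scaling: with median-ratio size factors it was 10 higher and 9 lower, and with trimmed-mean factors 12 higher and 3 lower, and the 3 arginine anticodons were past 2-fold in both. With only sequences ending in CCA, as shares of all such reads, Arg-ACG was under 2-fold at 0.94.

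As shares of cytoplasmic RPM, the step from egg to 1cell was wider than the whole span. It was 2.08 on the log2 scale for Arg-ACG (2.05 to 2.11), 2.16 for Arg-TCT (2.03 to 2.31) and 2.63 for Arg-CCT (2.43 to 2.91). In shares, 42.9% of the 35 anticodons stood 2-fold or more above egg in 1cell and 0 stood as far below, with a median of 0.91. A difference of this direction was thus common in the table. In RPM the span was the wider for Arg-TCT, at 82.0 in egg, 236 in 1cell and 283 at 24hpf. Among cytoplasmic reads other than His-GTG, Arg-TCT held 0.114%, 0.304% and 0.331% in these libraries. Arg-ACG held 2.32%, 5.81% and 5.16% of them. The signs of later steps also depend on the scaling. From 1cell to 256cell the 3 were lower in shares, at -1.02 for Arg-ACG, -0.44 for Arg-TCT and -0.92 for Arg-CCT. Among reads other than His-GTG, Arg-TCT was at 0.304% in 1cell and 0.318% in 256cell. Sphere was above 256cell in all 3 (0.53, 0.44 and 0.41), and shield was below sphere (-0.43, -0.61 and -0.34). In RPM, shield was above sphere for Arg-ACG (4118 against 4041) and Arg-CCT (105 against 97.2), and below it for Arg-TCT. Between shield and 24hpf Arg-ACG was at 0.01 (-0.01 to 0.04) and Arg-TCT at -0.00 (-0.11 to 0.11), while Arg-CCT was at -0.19 (-0.37 to -0.01) and the median of all 35 was at -0.66. In this step all 3 were higher at 24hpf when His-GTG reads were left out. From shield to 24hpf Arg-ACG then went from 3.67% to 5.16%, Arg-TCT from 0.238% to 0.331% and Arg-CCT from 0.0940% to 0.114%. With 1cell in the place of egg the 24hpf embryo was lower in all 3 as shares of cytoplasmic RPM. The ratios were -0.91 for Arg-ACG, -0.61 for Arg-TCT and -1.04 for Arg-CCT. For Arg-TCT the sign was the other way in RPM and among reads other than His-GTG, as the values above show. Arg-ACG and Arg-CCT were lower there too, though Arg-ACG only from 4508 to 4412 in RPM. Egg alone stands below the rest, and with 1 library its position cannot be told apart from a property of that library.

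The 3 later stages, which follow the start of transcription from the embryo's genome, were also set against the 3 earlier ones. Here different stages stand in for replicates, so the spread holds development as well as error. The later stages were at 0.26 on the log2 scale (SE 0.56, limma adjusted p = 0.736) for Arg-ACG, 0.46 (SE 0.61, limma adjusted p = 0.663) for Arg-TCT and 0.38 (SE 0.67, limma adjusted p = 0.736) for Arg-CCT. None passed, and limma called 0% of the 35 anticodons (5 had an unadjusted p under 0.05). An edgeR quasi-likelihood test on the reads called 1 of 35, no arginine anticodon among them. Its log2 ratios were wider, at 1.05 for Arg-ACG (adjusted p = 0.254), 1.19 for Arg-TCT (adjusted p = 0.229) and 1.06 for Arg-CCT (adjusted p = 0.261). For none of the 3 did the later libraries lie clear of the earlier ones, and the two-sided exact permutation p was 0.7, 0.8 and 0.8, where the smallest possible is 0.1. Without egg the signs turned, to -0.26 for Arg-ACG, -0.19 for Arg-TCT and -0.34 for Arg-CCT.

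Within the arginine reads the AGR-reading tRNAs took a slightly larger part in the embryo than in the egg. This measure does not depend on the scaling between libraries. Arg-ACG held 93.9% of arginine reads in egg (93.4 to 94.3), 92.9% in 1cell, 90.6% in 256cell (90.0 to 91.1), 91.1% in sphere, 91.7% in shield and 92.1% at 24hpf (91.7 to 92.4). Arg-TCT held 4.60% in egg (4.24 to 4.98), 4.85% in 1cell (4.61 to 5.11), 7.07% in 256cell (6.60 to 7.57), 6.71% in sphere (6.41 to 7.02), 5.95% in shield (5.62 to 6.30) and 5.90% at 24hpf (5.64 to 6.18). Its intervals in egg and in 1cell overlapped and lay below the other 4. Arg-CCT held 1.53% in egg (1.32 to 1.75) and 2.04% to 2.36% in the other 5 libraries, whose lowest interval began at 1.88. From egg to 24hpf the difference of Arg-ACG was -1.82 percentage points. Arg-ACG came first, Arg-TCT second and Arg-CCT last in every library.

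The composition of Arg-ACG differed more across stages than its balance with the minor anticodons. Position 26 was read as the G of the assembled sequence in 27.6% of Arg-ACG reads in egg (26.8 to 28.4), 56.8% in 1cell (56.2 to 57.4), 27.3% in 256cell (26.4 to 28.2), 40.5% in sphere (39.9 to 41.2), 44.4% in shield (43.6 to 45.1) and 59.1% at 24hpf (58.5 to 59.7). Egg and 256cell were alike and lowest, 24hpf and 1cell were highest, and from 256cell onward each stage was above the one before. G26T was the main substitution, at 48.7% in egg, 26.8% in 1cell, 49.0% in 256cell, 40.1% in sphere, 35.96% in shield and 27.3% at 24hpf. G26A was at 12.8%, 9.02%, 13.2%, 10.2%, 8.98% and 5.52% in the same order. A missing base, G26del, was found in 7.25% to 10.7% of reads, and G26C in at most 0.194%.

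**Figure D2:**
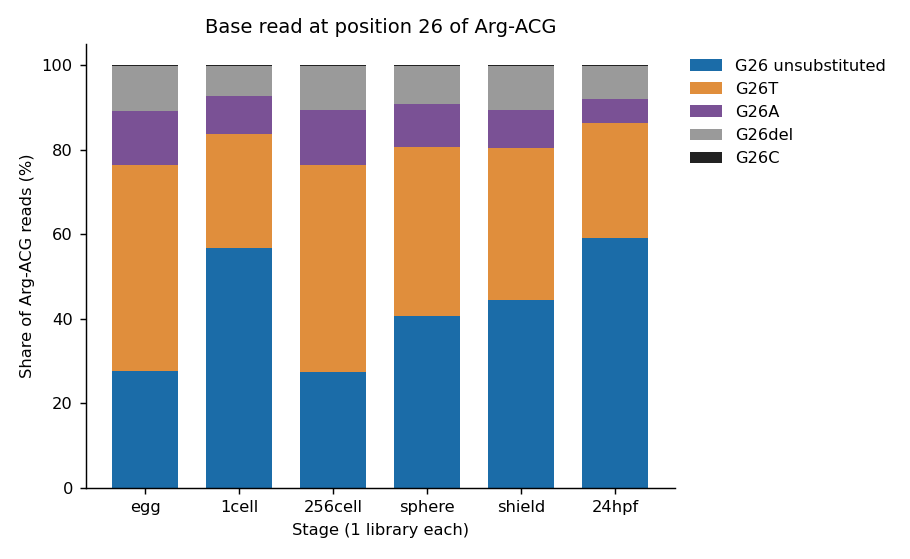
Stacked bars give the share of Arg-ACG reads (%) by what was read at position 26 in each library (1 library per stage). The unsubstituted part runs from 27.3% in 256cell to 59.1% at 24hpf and is also high in 1cell with 56.8%.

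The gain of Arg-ACG between egg and 24hpf was mostly in the unsubstituted reads. These stood at 461 RPM in egg, 2561 in 1cell, 809 in 256cell, 1638 in sphere, 1827 in shield and 2609 at 24hpf, a log2 ratio of 2.27 between 24hpf and egg (2.22 to 2.33). Reads with G26T stood at 815, 1207, 1454, 1622, 1481 and 1203 RPM, with a log2 ratio of 0.34 (0.29 to 0.39). The ratio was -0.04 for G26A (-0.15 to 0.06) and 0.74 for G26del (0.65 to 0.85). Of the 2739 RPM by which Arg-ACG was higher at 24hpf, 2147 RPM (78.4%) were unsubstituted reads.

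Where a read began moved with what it held at 26. Among unsubstituted reads 37.8% to 51.7% started at position 8 or 9, depending on the library, against 3.03% to 5.05% of G26T reads and 2.59% to 3.99% of G26del reads. G26A reads were nearer to the unsubstituted ones, with 30.8% to 39.1%. Most G26T reads, 73.6% to 76.8%, started at 13 or later. The difference between stages was therefore also taken within 2 narrower classes, reads that start at 8 with any end and reads that run from 13 to 76. Among reads from 8, the unsubstituted share was 51.0% in egg, 79.8% in 1cell, 51.4% in 256cell, 67.4% in sphere, 75.9% in shield and 88.7% at 24hpf. Among reads from 13 to 76 it was 14.8%, 35.98%, 11.6%, 18.0%, 19.4% and 29.3%. The direction from 256cell to 24hpf held in both classes. In the 13 to 76 class 1cell was above 24hpf only with the C25T reads described further on: without them the shares were 11.1% in egg, 22.0% in 1cell (20.7 to 23.4), 10.1% in 256cell, 14.9% in sphere, 18.4% in shield and 28.9% at 24hpf (27.4 to 30.5). Without them 1cell was thus below 24hpf, as it was among reads from 8.

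**Figure D3:**
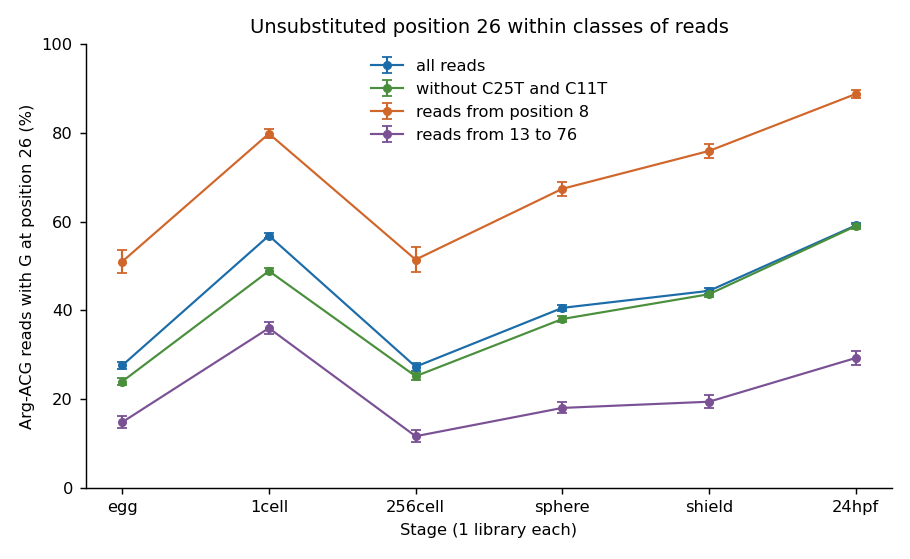
The share of Arg-ACG reads with G at position 26 (%) is drawn by library for all reads, for reads without C25T and C11T, for reads from position 8 and for reads from 13 to 76, with 95% exact intervals of counting error. All 4 lines are low in egg and in 256cell and higher at 24hpf, where reads from 8 reach 88.7%.

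Arg-TCT and Arg-CCT read A at position 26 in all their sequences, so the mixture belonged to Arg-ACG among the 3. Base 26 could be placed in 34 anticodons, and 7 of them, Arg-ACG included, held G in a mixture with other bases (a mean G share between 2% and 98% over the 6 libraries). Asn-GTT, the other abundant one, held G at 26 in 51.9% of reads in egg, 83.4% in 1cell, 40.2% in 256cell, 52.9% in sphere, 38.3% in shield and 40.8% at 24hpf. Like Arg-ACG it was high in 1cell, but unlike it 24hpf was below egg. Ser-GCT went from 74.6% to 55.5%, Leu-AAG from 71.3% to 65.4%, Thr-CGT from 66.9% to 73.02%, and Val-AAC from 93.2% to 91.2% (egg to 24hpf in each), and Ser-AGA held G in at most 6.39% of reads in any library. Arg-ACG had the widest gain of G between these 2 libraries among the 7, at 31.6 percentage points. Whether the methylation of G26, its removal by the enzymes in each library or the genes in use differed was not tested.

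A second set of Arg-ACG reads went the other way. C25T was found in 19 sequences and C11T in 7, and none of these 26 had a substitution at 26. C25T made up 3.64% of Arg-ACG reads in egg (3.31 to 3.99), 12.7% in 1cell (12.3 to 13.1), 1.79% in 256cell (1.54 to 2.08), 2.68% in sphere (2.48 to 2.90), 0.871% in shield (0.738 to 1.02) and 0.273% at 24hpf (0.214 to 0.342). Among reads long enough to show position 11, C11T made up 3.37% in egg, 5.68% in 1cell, 3.01% in 256cell, 3.36% in sphere, 1.08% in shield and 0.249% at 24hpf. Both were highest in 1cell, the library in which all listed arginine sequences had at least 35 reads, and lowest at 24hpf.

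In RPM, C25T stood at 60.9 in egg, 574 in 1cell, 53.2 in 256cell, 108 in sphere, 35.9 in shield and 12.0 at 24hpf, which put 24hpf below egg by -2.47 on the log2 scale (-2.94 to -2.20). C11T stood at 18.9, 128, 31.6, 55.2, 19.2 and 5.53 RPM, with a ratio of -1.83 (-2.58 to -1.44). Positions 11 and 25 both lie in the stem of the D arm. Without both sets the unsubstituted share at position 26 was 23.9% in egg, 48.8% in 1cell (56.8% with them), 25.1% in 256cell, 38.0% in sphere, 43.6% in shield and 59.0% at 24hpf (59.1% with them).

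**Figure D4:**
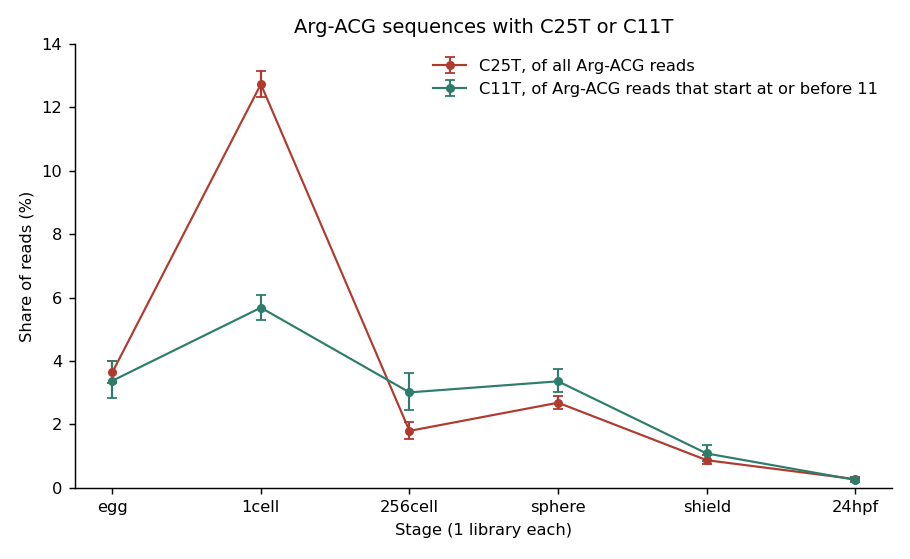
The share of reads (%) with C25T among all Arg-ACG reads and with C11T among Arg-ACG reads that start at or before position 11, by library, with 95% exact intervals of counting error. C25T peaks at 12.7% in 1cell, and the lines end at 0.273% and 0.249% at 24hpf.

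Position 9 was another place where reads differed within an anticodon, and it was steadier across stages. In many vertebrate tRNAs this purine is methylated at its Watson-Crick face, a kind of methyl group that the ALKB mixture removes. Among Arg-ACG reads that start at 8 or before, a substituted G9 (G9T, G9C or G9A) made up 19.2% in egg (17.2 to 21.3), 21.3% in 1cell, 19.2% in 256cell, 19.0% in sphere, 20.7% in shield and 24.5% at 24hpf (23.4 to 25.7). The intervals of the first 5 libraries overlapped, and the value at 24hpf was the highest. Arg-TCT had G9T in 7% to 9.74% of such reads and Arg-CCT in 17.6% to 26.6%, with overlapping intervals between all pairs of stages for both. Reads starting at 9 were left out, since there a substitution and a missing base look the same.

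The anticodon itself was read the same way at every stage. All 125 Arg-ACG sequences had G at the first anticodon base (A34G from the label), the letter by which inosine is read, and none had A. The same held for 4 of 4 Leu-AAG, 1 of 1 Thr-AGT and 15 of 15 Val-AAC sequences, for 8 of 9 Ser-AGA sequences with 97.6% of the reads, and for 6 of 9 Pro-AGG sequences with 74.4%. A gene whose anticodon is GCG would give the same letters. Arg-TCT and Arg-CCT kept the labelled anticodon in all sequences, and C at position 32, which carries a methyl group in these tRNAs in mammals, was read as C in all of them.

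The 3′ ends of arginine tRNA reads were less complete than those of all cytoplasmic reads pooled. In the pooled reads, most of which were of His-GTG, 86.1% to 90.4% ended in CCA. That value does not show where the other single anticodons stood. Arg-ACG ended in CCA in 52.2% of reads in egg (51.3 to 53.1), 50.7% in 1cell (50.1 to 51.3), 48.0% in 256cell (47.0 to 49.0), 43.9% in sphere (43.2 to 44.5), 46.2% in shield (45.4 to 46.9) and 43.6% at 24hpf (43.0 to 44.1). Every later library was below every earlier one, by a mean of -5.78 points (two-sided exact permutation p = 0.1, the smallest that 3 against 3 libraries allow). Such a separation downward was found in 17.1% of the 35 anticodons. In Arg-ACG it rests on the C25T reads, most of which ended in CCA. These were 12.7% of Arg-ACG reads in 1cell, 0.871% in shield and 0.273% at 24hpf. With them left out, the CCA share of 1cell would lie below that of shield. Split by position 26, the separation was present in the unsubstituted and the G26del reads of Arg-ACG but not in the G26T or G26A reads. The unsubstituted reads include all those with C25T. With C25T left out, 1cell would lie below shield and 24hpf among the unsubstituted reads. G26T reads ended in CCA in 48.3% in 256cell and 49.7% in shield. For G26A reads the share was 38.9% in 1cell, 40.1% in sphere, 39.8% in shield and 39.9% at 24hpf. Listed sequences were at least 60 nt long, and all Arg-ACG sequences listed from position 16 or 17 ended in CCA. Reads from 16 were 4.26% of Arg-ACG reads in egg and 2.05% at 24hpf, and reads from 17 were 1.36% and 0.763%. The part of this length limit in the CCA difference was not tested.

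Arg-TCT went the opposite way. Its CCA share was 33.8% in egg (30.0 to 37.9), 34.4% in 1cell (31.9 to 36.9), 36.5% in 256cell (33.1 to 40.01), 36.6% in sphere (34.3 to 38.9), 39.4% in shield (36.6 to 42.4) and 38.7% at 24hpf (36.4 to 41.1). The later libraries lay above the earlier ones by a mean of 3.34 points (exact permutation p = 0.1), a separation upward found in 5.71% of the 35 anticodons. The gap between 256cell and sphere was far within counting error. Arg-CCT rarely ended in CCA, with 12.4% in egg (8.13 to 17.9), 13.6% in 1cell (11.1 to 16.4), 12.8% in 256cell (9.01 to 17.6), 9.60% in sphere (7.31 to 12.3), 11.04% in shield (8.28 to 14.3) and 6.66% at 24hpf (4.80 to 8.95). It too was lower in every later library, by a mean of -3.85 points (exact permutation p = 0.1), on 24 to 91 CCA reads per library. Those CCA reads came from 2 listed sequences, with 44 and 47 reads in 1cell. The share also counts reads from position 1 that ended between 60 and 66, short of the 3′ end. Such reads were 59.1% of Arg-CCT reads in egg and 31.5% in shield. Leaving them out would raise the CCA share, most of all in egg. None of the 3 anticodons can reach p under 0.05 in this design. With these reads counted, the intervals of Arg-CCT overlap between all stages except that 24hpf lay below both 1cell and 256cell.

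**Figure D5:**
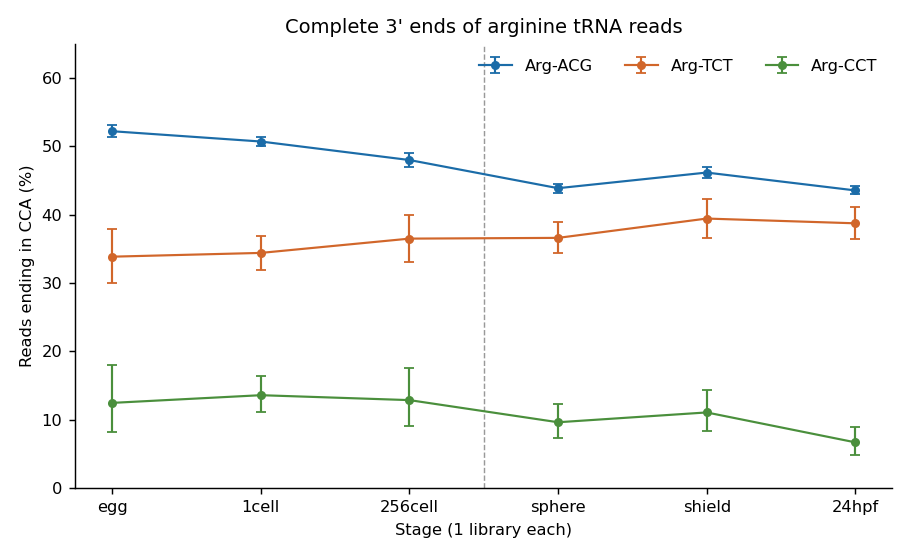
The share of reads ending in CCA (%) for Arg-ACG, Arg-TCT and Arg-CCT by library, with 95% exact intervals of counting error; the dashed line parts the 3 earlier from the 3 later stages. Arg-ACG runs from 52.2% in egg to 43.6% at 24hpf, Arg-TCT from 33.8% to 38.7%, and Arg-CCT is highest at 13.6%.

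Where reads stopped short, each tRNA had its own end. Arg-ACG reads mostly ended at 74, after the first C of CCA, in 43.5% to 49.5% of reads, and at 75 in 4.10% to 6.80%. Arg-TCT reads ended at 72, before the discriminator base at 73, in 29.5% to 38.7% and at 74 in 17.9% to 26.6%. Arg-CCT reads ended at 73 in 28.5% to 57.4%. A further 31.5% to 59.1% of Arg-CCT reads, from 4 of its 10 sequences, started at position 1 and ended between 60 and 66, with egg the highest. No listed arginine sequence ran from 1 to 76: the 150 were 60 to 69 nt long, and 2 Arg-ACG and no Arg-TCT sequences started at 1. Counting reads that ended in CC or CCA, Arg-ACG was still lower in the later stages, by -3.59 points.

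Single sequences spread widely, and that spread followed position 26. Of the 150 arginine sequences 80 had a mean of at least 10 RPM, and 42 of these stood at least 2-fold above egg at 24hpf while 6 stood as far below (median 1.10). Over all 1913 cytoplasmic sequences past the same limit 12.5% were higher and 42.3% lower (median -0.62). The 7 Arg-TCT and the 3 Arg-CCT sequences past the limit were all higher. Of the 35 Arg-ACG sequences unsubstituted at 26, 29 were higher, and the 6 that were lower were the 4 with C25T and the 2 with C11T. All 6 were highest in 1cell. Except for the C25T read printed above, they would fall under the limit of 10 RPM without that library. Their number thus depends on the library in which they were high. In the same way Arg-ACG reads 66 and 69, counted among the 29, would fall under that limit without 24hpf, where they were high. Of 16 sequences with G26T 2 were higher, of 9 with G26del 1 was, and of 10 with G26A none was.

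The most abundant single sequence, Arg-ACG read 1, is the G26T read from 13 to 76 printed above. It stood at 200.9 RPM in egg, 287 in 1cell, 327 in 256cell, 370 in sphere, 367 in shield and 266 at 24hpf, with a log2 ratio of 0.18 between 24hpf and egg (0.07 to 0.28). Arg-ACG read 2, the same tRNA with G26T ending at 74, stood at 133, 211, 270, 295, 262 and 243 RPM, with a ratio of 0.64 (0.52 to 0.76). Arg-ACG read 3, without substitution from 8 to 74, stood at 36.1 RPM in egg, 240 in 1cell, 78.8 in 256cell, 172 in sphere, 212 in shield and 333 at 24hpf. Its ratio was 2.95 (2.79 to 3.17), and it passed both G26T reads at 24hpf after being the lowest of the 3 in egg.

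The 3 sequences with the highest ratios were all unsubstituted at 26 and none ended in CCA. Arg-ACG read 6, also unsubstituted at 26 but ending in CCA, was near them at 2.90. Arg-ACG read 35, from 8 to 75, went from 4.09 RPM in egg to 54.2 at 24hpf, a ratio of 3.21 (2.95 to 4.10 without the added RPM). Arg-ACG read 31, with G9T from 8 to 74, went from 6.34 to 71.9 RPM, a ratio of 3.09 (2.83 to 3.75 without the added RPM). Arg-ACG read 48, from 14 to 75, went from 2.96 to 37.2 RPM, a ratio of 3.05 (2.78 to 4.15 without the added RPM). At the other end, all 3 lowest sequences ended in CCA, while Arg-ACG read 58, with C11T and an end at 74, was at -1.54. Of the 3, reads 40 and 68 passed the limit on mean RPM only through 1cell, where they were highest. Arg-ACG read 40, with C25T from 11 to 76, went from 9.44 RPM in egg and 99.9 in 1cell to 0.651 at 24hpf, a ratio of -2.89 (-6.001 to -2.66 without the added RPM). Arg-ACG read 33, the C25T read printed above, went from 14.1 RPM in egg and 125 in 1cell to 2.44 at 24hpf, a ratio of -2.36. Arg-ACG read 68, with C11T from 8 to 76, went from 5.64 to 0.651 RPM, a ratio of -2.23.

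The leading reads of the minor anticodons held no substitution. Arg-TCT read 1, from 8 to 72, stood at 22.4 RPM in egg, 43.8 in 1cell, 49.9 in 256cell, 63.0 in sphere, 58.2 in shield and 64.2 at 24hpf (log2 ratio 1.25). Arg-TCT read 2, complete to CCA from 8 to 76, stood at 14.4, 45.9, 40.3, 61.6, 56.3 and 59.9 RPM (1.76), and Arg-TCT read 3, ending at 74, had a ratio of 1.51. In all 3 the egg was the lowest library. Arg-CCT read 1, from 1 to 60, stood at 7.89, 17.4, 16.8, 15.1, 16.1 and 20.8 RPM (1.07), Arg-CCT read 2, from 11 to 73, at 3.10, 19.4, 13.8, 13.6, 20.9 and 13.7 RPM (1.61), and Arg-CCT read 3, from 8 to 73, had a ratio of 1.75.

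Other tRNAs of basic amino acids were set beside these. Between egg and 24hpf Lys-TTT was at 1.49 on the log2 scale (1.16 to 2.10), Lys-CTT at 0.40 (0.39 to 0.41) and His-GTG, which took most cytoplasmic reads, at -0.00. Lys-TTT rested on 1 listed sequence, at 7.33 RPM in egg. Its course was unlike that of the arginine anticodons, with 2.91 from 256cell to sphere and -2.06 from shield to 24hpf. By Pearson's r of log2 share over the 6 libraries, the anticodons most like the arginine ones were Lys-CTT (0.95 with Arg-ACG, 0.90 with Arg-TCT and 0.95 with Arg-CCT) and Glu-TTC (0.92, 0.85 and 0.91). Among themselves the 3 arginine anticodons had r from 0.95 to 0.98. All values of a library share its total and its depth.

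The arginine tRNA of the mitochondrion, trnR, which serves the mitochondrial ribosome alone, was lower at 24hpf than in egg, unlike the cytoplasmic ones. From egg to 1cell it was higher in RPM, as they were. It stood at 12112 RPM in egg, 22158 in 1cell, 21976 in 256cell, 19294 in sphere, 8196 in shield and 1419 at 24hpf. Its share of mitochondrial tRNA reads was 9.01% in egg (8.95 to 9.07), 9.43% in 1cell, 9.10% in 256cell, 9.61% in sphere, 8.18% in shield and 3.62% at 24hpf (3.54 to 3.69). Between egg and 24hpf that share was at -1.32 on the log2 scale (-1.35 to -1.28), where the median of the 22 mitochondrial tRNAs was 0.09. Reads of trnR outnumbered all cytoplasmic arginine reads 6.79 to 1 in egg, and at 24hpf they were 0.296 of them. Mitochondrial tRNA reads as a whole were 954070 of 7096801 in egg and 241206 of 6148047 at 24hpf. Part of the difference in RPM and in this ratio was therefore common to the mitochondrial pool.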

How the data were processed

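The authors deposited both tables, cytoplasmic tRNA read sequences and mitochondrial tRNAs, in RPM, reads relative to the total of their library. The submitters' processing notes name cutadapt 3.4, Bowtie2 2.4.2 and the build GRCz11. Settings, the rule by which a sequence was listed or labelled, and how reads shared by gene copies were treated are not given in these sources. In each library 100% of the cytoplasmic RPM values were whole multiples of 1 read within 0.01 reads, which gave the reads used for intervals. These reads also went into edgeR 4.0.16 (quasi-likelihood), which called 1 of 35 anticodons between later and earlier stages.

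Sums of RPM per anticodon label, plus 1 RPM, were taken as shares of the library's cytoplasmic total. Of 38 anticodons, 35 reached a mean of 10 RPM and were kept. Single stages were compared by size, at least 2-fold, with exact binomial intervals at 95%; later and earlier stages were compared with limma 3.58.1 in R 4.3.3 with Benjamini-Hochberg adjustment and by exact permutation. The arginine sequences were aligned with Biopython 1.88 to a sequence assembled from reads overlapping exactly over at least 40 bases, and numbered from the first anticodon base as 34. Base 26 of other tRNAs was placed by an anticodon loop with at least 4 of 5 stem pairs. Gaps were allowed, which differs from the planned gapless alignment, because G26del would otherwise be lost. The sequences named singly are the 3 most abundant per anticodon and the 3 highest and 3 lowest between egg and 24hpf among those past that same limit. The anticodons named for likeness have the highest r. The members, lists and rules were chosen with earlier results of these data known. Gene positions were not used here.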

Additional observations from a re-analysis of the deposited data

How the results depend on the processing

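Between 24hpf and egg the ratios ranged from 0.94 to 2.43 for Arg-ACG over 12 other settings of scaling, pseudocount, filter and sequence choice, from 1.199 to 2.81 for Arg-TCT over 11 and from 1.31 to 2.84 for Arg-CCT over 9, all in the same direction. Among these settings, the ones that only changed the filter on anticodons could not alter a kept ratio. Arg-ACG was under 2-fold, at 0.94, with only sequences ending in CCA as shares of all such reads. Trimmed-mean factors moved the median of the 35 anticodons by 1.26 on the log2 scale, median-ratio factors by 0.74 and RPM as deposited by 0.22. With 1cell in the place of egg the ratios were -0.91 for Arg-ACG, -0.61 for Arg-TCT and -1.04 for Arg-CCT, and with 256cell 0.11, -0.17 and -0.12. These compare shares of cytoplasmic RPM, and some signs differed in RPM as deposited. There Arg-TCT stood at 236 in 1cell, 232 in 256cell and 283 at 24hpf, and Arg-CCT at 110, 77.3 and 97.8. Leaving out each stage in turn, later against earlier stages ranged from -0.26 to 0.78 for Arg-ACG, from -0.19 to 0.90 for Arg-TCT and from -0.34 to 0.97 for Arg-CCT, the negative values being those without egg and the highest those without 1cell; in no setting did an arginine anticodon pass. The gain of unsubstituted position 26 between egg and 24hpf, 31.6 points, was 30.1 with only CCA reads and, in settings added after the data were seen, 35.02 without C25T and C11T, 14.5 in reads from 13 to 76, 17.9 in these without C25T and 37.8 in reads from 8. With sequences of at least 350 reads in 1cell, also added later, Arg-ACG was at 1.28 and no Arg-TCT or Arg-CCT value could be had; nor could one for Arg-CCT with the filter at 100 RPM or CCA reads alone. The balance difference of Arg-ACG was -2.26 points with only sequences ending in CCA. Its other settings removed no arginine sequence and so could not change it. With reads ending in CC or CCA, the CCA differences were -3.59 points for Arg-ACG and 3.06 for Arg-TCT. No Arg-CCT read ended at 75, so its value could not change, and the leading sequence family alone repeated all 3 values. Single arginine sequences 2-fold higher were 61 of 150 (40.7%) with a limit of 1 RPM, where 11.7% of all cytoplasmic sequences were. With RPM as deposited they were 45 of 80 (56.2%), where 16.8% of all were. The causes of these differences were not tested. No paired analysis was possible because each stage has 1 library. Arg-CCT rests on 193 to 671 reads per library, and the differences from egg rest on that 1 library.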
